A study of Mus musculus with 6 samples.

Results

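Adhesion G protein-coupled receptors (adhesion GPCRs) were examined in cultured adherent bone marrow cells of young and old mice. Members were chosen by gene symbol, as every gene named Adgr followed by a letter and a number, and 27 of the 39017 genes in the count table met that rule. RNA had been sequenced from 3 libraries of young mice (3 weeks old) and 3 libraries of old mice (older than 78 weeks), each made from 10000 cells. All were wild-type animals of BALB/c, an inbred strain, with no further treatment in the labels. The cells came from crushed limb bones, and those attached to the dish were grown in medium with serum. The submitters described them as macrophages positive for F4/80 and CD169. Nothing in the labels ties each library to an animal of its own, so the tests speak of the variation among these 6 libraries, which may be technical.

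Adhesion GPCRs carry a long extracellular part built from adhesion domains, joined to the membrane-spanning helices of a G protein-coupled receptor. Many cut themselves at a conserved site just outside the membrane, and the freshly exposed end of the membrane-bound piece can then act as a built-in agonist. Ligands are often matrix proteins or proteins on neighbouring cells, and signalling runs through heterotrimeric G proteins. The family is divided among cell types: F4/80, the product of Adgre1, is the classical surface marker of mouse tissue macrophages, whereas other members are known from endothelium, glia, neurons, epithelium and granulocytes.

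Each library held between 34391206 and 43367734 counts, of which the 27 members together took 0.0619% to 0.0804%. Levels are given as CPM, counts scaled to a common library size. Markers of the labelled cell type were looked up, and none of the 14 macrophage markers was at 0 in all libraries. The same held for the lists of B cell and neutrophil markers, so presence alone does not establish the label. Csf1r, which encodes the CSF1 receptor of macrophages, was at 712 ± 21.7 CPM (SD, n = 3) in young and 379 ± 28.1 CPM in old libraries. Stromal markers, among them collagen genes, were abundant as well, with a summed level of 27623 to 60129.7 CPM in young and 20347 to 25349 CPM in old libraries. The highest of these belonged to young replicate 3, in which Adgre1 was lowest among the young libraries. The summed macrophage markers, led by Lyz2, were also highest there, at 9679 CPM against 7691 and 8452 CPM in young replicates 1 and 2. Col1a1 was the largest part of the stromal sum. In the test below, Pdgfra and Cxcl12 of the 10 stromal markers were higher in old libraries and 3 were lower. Differences between ages are therefore those of whole cultures, and fewer cells of a type cannot be told apart from less RNA per cell.

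Of the 27 members, 24 had at least 1 count in some library and 18 passed the filter on low counts and entered the test. In the old libraries 3 tested members were higher (Adgrg1, Adgrf5 and Adgra2), 1 was lower (Adgre1), and 14 did not pass an adjusted p of 0.05. Over all 15567 genes tested, 10.5% passed, 5.84% higher and 4.7% lower. The median log2 fold change (old minus young) was -0.13 over the tested members and -0.01 over all tested genes. CPM ranges did not overlap between ages for 7 of the 18 members, against 30.2% of all tested genes. Leaving out 1 library gave 1 to 4 higher and 1 to 2 lower members. Higher members numbered 1 without old replicate 1 or old replicate 2, where Adgrf5 was the one that still passed, and 2 without young replicate 1, young replicate 2 or old replicate 3. Without young replicate 3 they numbered 4, Adgra3 being added. Lower members numbered 2 without old replicate 1, Adgrg6 being added.

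**Figure D1:**
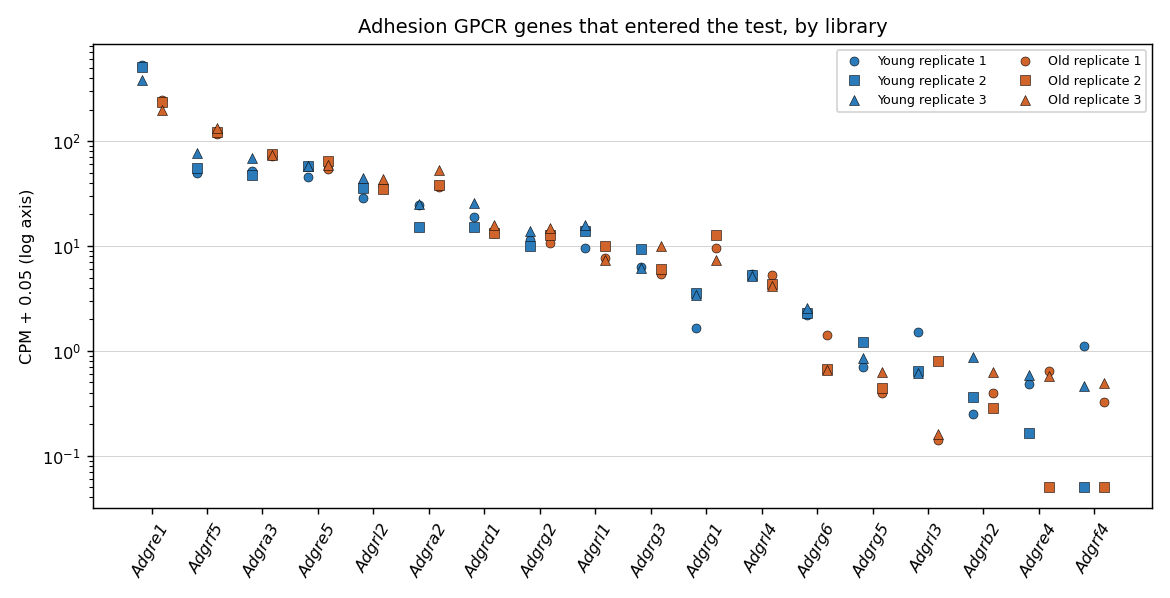
CPM of the 18 tested members in each library (log axis, 0.05 added to every value so that libraries at 0 can be drawn), with blue for young, orange for old and the symbol shape for the replicate number. Adgre1 stands highest in every library, with all young points above all old ones, while the old points lie above the young ones for Adgrf5, Adgra2 and Adgrg1.

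Adgre1 was the most abundant member and the one that fell. It is a protein-coding gene (ENSMUSG00000004730) on the plus strand of chromosome 17, from 57358691 to 57483527 (mm10), and none of its exon length is shared with another gene. In young replicates 1, 2 and 3 its level was 530.2, 504 and 385 CPM, and the old replicates, in the same order, had 245, 236 and 197 CPM. The lowest young library thus stood well above the highest old one. The log2 fold change was -1.06 (SE 0.14, adjusted p = 0.00499, edgeR), a 2.09-fold lower level in old libraries. It ranged from -1.19 to -0.98 on leaving out 1 library and passed in each of those fits (adjusted p up to 0.0292).

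Most other tested macrophage markers were lower in the same libraries. Of the 12 tested macrophage markers other than Adgre1, 8 fell, 1 rose and 3 did not pass, with a median log2 fold change of -0.80. Those 3 were Cd68, with a log2 fold change of -0.27, and Cd163 and Timd4, with 0.58 and 0.92. Cd163 and Timd4 were low, with means of 2.55 and 0.496 CPM in old libraries. Siglec1, which encodes the sialic acid receptor CD169, Csf1r and the mannose receptor gene Mrc1 had log2 fold changes of -1.60, -0.91 and -0.97. Of the 8, 3 fell further than Adgre1. The marker that rose was Vsig4, a complement receptor gene of resident macrophages, from 0.134 ± 0.128 to 3.49 ± 1.38 CPM (SD, n = 3). Pan-leukocyte markers, such as the Fc receptor chain gene Fcer1g and the signalling gene Vav1, fell in 6 of 15 cases with a median of -0.42. That count was 10 without young replicate 3, 4 without young replicate 2, 3 without old replicate 3 and 1 without old replicate 1 or 2.

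Eosinophils also carry F4/80. The 8 eosinophil markers summed to 30.8 CPM in young replicate 1, 1.73 and 0.713 CPM in young replicates 2 and 3, and 29 to 45.4 CPM in the old libraries. The part of these cell types in the level of Adgre1 was not tested.

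Set against the mean of the 15 pan-leukocyte markers in the same library, Adgre1 was higher by 2.23, 1.95 and 1.83 log2 units in young replicates 1 to 3. For the old replicates the difference was 1.43, 1.43 and 1.14 log2 units, so the ages did not overlap on that scale either. With libraries scaled to those markers, an alternative chosen after seeing the data, Adgre1 still fell (log2 fold change -0.67, adjusted p = 0.0114). That scaling moved the median of all genes by 0.38 upward. Against the 8 other macrophage markers with a mean of at least 5 CPM, the values were 0.80, 0.66 and 0.32 log2 units in young and 0.50, 0.50 and 0.31 log2 units in old libraries, and here the ages overlapped. The CPM ratio of Adgre1 to Siglec1 was 4.08, 4.02 and 2.78 in young and 5.06, 5.42 and 5.21 in old libraries, so it was higher in every old library than in any young one.

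**Figure D2:**
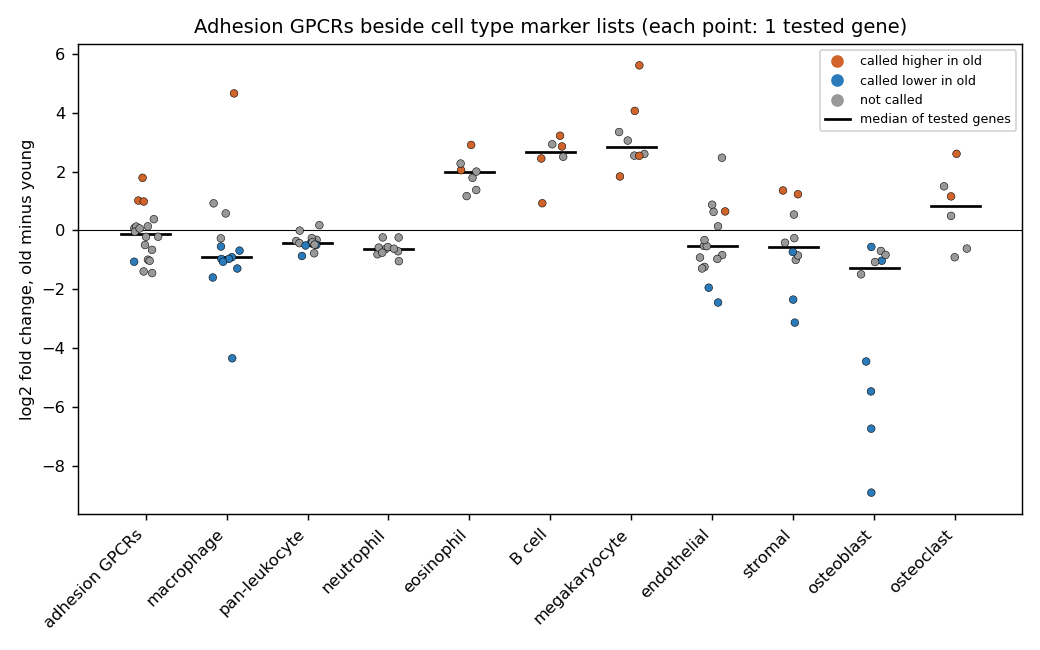
Log2 fold change (old minus young) of each tested adhesion GPCR and of each tested gene in 10 cell type marker lists, with bars at the medians and colour for genes called higher (orange), lower (blue) or not called (grey). Macrophage and pan-leukocyte medians lie at -0.91 and -0.42, the megakaryocyte median at 2.83, and the adhesion GPCR median at -0.13 with calls in both directions. The macrophage list here includes Adgre1.

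The other members of the Adgre1 subgroup, which carry epidermal growth factor-like domains, did not pass the test with TMM scaling. Adgre5 encodes CD97, a receptor found on most leukocytes and on many other cells. The young libraries had 45.4, 57.5 and 57.7 CPM and the old ones 53.7, 64.3 and 59 CPM, which overlap (log2 fold change 0.14, SE 0.12, adjusted p = 0.571). It passed, as higher, only with libraries scaled to the pan-leukocyte markers, of the 15 alternatives run (log2 fold change 0.53, adjusted p = 0.0296). Of its exon length 24.6% is shared with Ddx39, so some reads may belong to that gene. Per kilobase of exons, Adgre1 stood 13.6, 10.2 and 7.75 times above Adgre5 in young libraries and 5.3, 4.27 and 3.88 times above it in old ones. Adgre4, a receptor of monocytes and macrophages that lies on chromosome 17 as well, was sparse. Its counts were 15, 4 and 18 (young) and 26, 0 and 19 (old), and its direction changed with the fit.

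The ligands of CD97 on the list of partners are CD55, a complement regulator, and THY1. For Cd55 the young libraries had 2.43, 3.56 and 2.85 CPM and the old ones 4.86, 3.12 and 2.97 CPM, and for Thy1 they had 2.54, 3.65 and 3.6 CPM and 1.51, 1.74 and 2.86 CPM. Neither passed the test (adjusted p = 0.562 and 0.23).

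Adgrf5 encodes GPR116, a receptor known from lung epithelium, where it limits surfactant, and from endothelium. It was the one risen member whose call held on leaving out any library. Its level was 49.3, 55.9 and 77.3 CPM in the young libraries and 116, 122 and 132 CPM in the old ones, each in the order of their numbers. All old libraries exceeded the highest young one. The log2 fold change was 1.02 (SE 0.17, adjusted p = 0.0106), and 0.89 to 1.23 on leaving out 1 library (adjusted p up to 0.0477). The gene spans 43360451 to 43459557 on chromosome 17 (mm10, plus strand).

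Most endothelial markers did not pass. Of 15 tested, 1 rose and 2 fell, with a median log2 fold change of -0.53, and their summed level was 68.8 to 114 CPM in young and 109.5 to 120.3 CPM in old libraries. The marker that rose was Eng, a coreceptor for transforming growth factor beta (log2 fold change 0.65), which stromal cells also express. Its call was lost without young replicate 2 or any one old replicate (adjusted p up to 0.0935). Flt1 and Cldn5 fell. The Flt1 call was lost on leaving out any library (adjusted p up to 0.146), with the replicate block (adjusted p = 0.0762) and without a count filter (adjusted p = 0.0519). The Cldn5 call was lost without any one library other than old replicate 3 (adjusted p up to 0.169) and without a count filter (adjusted p = 0.0521). Cdh5 and Pecam1, defining junction genes of endothelium, had 2.85 ± 1.47 and 6.1 ± 2.49 CPM in young and 1.2 ± 0.616 and 4.23 ± 1.23 CPM in old libraries (SD, n = 3), without passing. Vwf went from 2.05 ± 1.55 to 11.4 ± 5.94 CPM, and Kdr from 15.8 ± 4.32 to 8.86 ± 1.45 CPM (SD, n = 3). For Vwf and Kdr the ages did not overlap, yet neither gene passed (edgeR adjusted p = 0.0795 and 0.0679). The part of endothelial cells in the rise of Adgrf5 was not tested.

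Adgrl4 encodes the endothelial receptor ELTD1. The young libraries had 5.34, 5.21 and 5.17 CPM and the old ones 5.18, 4.26 and 4.08 CPM, and the gene did not pass (log2 fold change -0.22, SE 0.16, adjusted p = 0.50). GPR116 ligands on the list are surfactant protein D, whose gene Sftpd had 0 counts in every library, and FNDC4. Fndc4 was at 18.4 to 19.9 CPM in young and 20.9 to 24.3 CPM in old libraries without passing (adjusted p = 0.251).

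Adgra2 encodes GPR124, which works with the membrane protein RECK as a coreceptor for WNT7A and WNT7B in brain vessels and is also made by pericytes and fibroblasts. Its level was 24.4, 15.1 and 24.9 CPM in young and 36.5, 38.3 and 52.6 CPM in old replicates 1 to 3, without overlap. The log2 fold change was 0.98 (SE 0.23, adjusted p = 0.0365). That call did not hold on leaving out any one library other than young replicate 3 (adjusted p up to 0.113, log2 fold change 0.78 to 1.11). Of 7 tested smooth muscle and pericyte markers, 2 rose and 1 fell. The contractile genes Acta2 and Cnn1 rose, from 2175 ± 293 to 3561 ± 256 CPM and from 63.9 ± 28.5 to 174 ± 15 CPM (SD, n = 3), and Acta2 made up most of the list's summed level (1982 to 2637 CPM in young and 3546 to 4057 CPM in old libraries). The pericyte gene Notch3 fell from 19.6 ± 3.99 to 9.62 ± 1.19 CPM, and Rgs5 and Mcam did not pass, at 1.6 ± 0.257 and 11.7 ± 4.36 CPM in young and 0.535 ± 0.486 and 6.39 ± 1.38 CPM in old libraries. Without old replicate 1 or old replicate 2 none of the list was called, and without young replicate 1, young replicate 2 or old replicate 3 the risen genes numbered 1. Lower ones numbered 2 without old replicate 3. The part of these cells in the rise of Adgra2 was not tested.

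Wnt7b, a ligand gene of this receptor, fell. It gave 362, 237 and 336 counts in the young libraries against 16, 0 and 6 in the old ones (log2 fold change -5.60, adjusted p = 0.00338). The call held on leaving out any library, but the log2 fold change was -6.74 without old replicate 1 and -5.04 without old replicate 2. Wnt7a had 0 counts in every library. Reck did not pass, with 19.5, 18.2 and 20.6 CPM in young and 22.4, 16.7 and 18.3 CPM in old libraries (adjusted p = 0.953).

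Adgra3, the close relative of Adgra2 that encodes GPR125, had 52.3, 47.2 and 69.5 CPM in the young libraries and 71.7, 74.6 and 74.3 CPM in the old ones. Its ranges did not overlap, yet it did not pass (log2 fold change 0.38, SE 0.15, adjusted p = 0.162). It passed without young replicate 3 (log2 fold change 0.56, adjusted p = 0.00497) and with libraries scaled to the pan-leukocyte markers (log2 fold change 0.75, adjusted p = 0.0251).

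Adgrg1 encodes GPR56, a receptor for collagen III and for the crosslinking enzyme transglutaminase 2 that is found on neural progenitors, blood stem cells, cytotoxic lymphocytes and platelets. It had the largest log2 fold change of the 18 tested members, at a low level. Its level was 1.6, 3.51 and 3.39 CPM in young and 9.56, 12.5 and 7.3 CPM in old replicates 1 to 3, from 56 to 124 counts per young and 263 to 483 counts per old library, without overlap. The log2 fold change was 1.79 (SE 0.34, adjusted p = 0.0177), a 3.46-fold higher level. Leaving out old replicate 1 (adjusted p = 0.0648) or old replicate 2 (adjusted p = 0.0714) ended the call, with the log2 fold change at 1.51 to 1.97 over all 6 such fits.

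Megakaryocyte markers were higher in the same libraries. Their summed CPM was 50.9, 82.1 and 47.3 in young and 273, 318 and 229 in old replicates 1 to 3, without overlap. The order of the libraries matched that of Adgrg1 among the old ones but not among the young ones, where the sum was lowest in replicate 3 and Adgrg1 in replicate 1. Most of the sum was Pf4, whose mean was 53 CPM at the young age and 190 CPM at the old age. For every other marker young replicate 1 was lowest or tied for lowest. Young replicates 1 to 3 gave 70, 295 and 146 counts of Itga2b, 4, 56 and 27 of Ppbp, and 5, 22 and 6 of Gp1ba. Among the old replicates only Itga2b, at 1776, 1194 and 501 counts, departed from the order of Adgrg1. Of the 8 megakaryocyte markers 4 rose (the platelet chemokine genes Pf4 and Ppbp, Gp1ba and Itga2b), and none was at 0 in all libraries. On leaving out 1 library the count was 1 without young replicate 3, 2 without young replicate 1, old replicate 1 or old replicate 2, 4 without old replicate 3 and 5 without young replicate 2. Markers of T and NK cells, which also carry GPR56, had 0 edgeR calls among 7 tested, with 2 at an unadjusted p under 0.05, 1 DESeq2 call (lower) and 0 limma-voom calls. Without young replicate 3 or old replicate 3, 1 was lower. The part of platelets or megakaryocytes in the rise of Adgrg1 was not tested. Of the partners of GPR56, Col3a1 was at 3875, 3604 and 9248 CPM in young and 3479, 3218 and 4633 CPM in old libraries, highest in young replicate 3. It did not pass, nor did the transglutaminase gene Tgm2 (adjusted p = 0.427 and 0.191).

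RefSeq promoter windows (GRCm38.p6, 250 bases before the annotated start) were found for 20 of the 27 members, 24 windows in all, and none for Adgra2, Adgrb1, Adgrd1, Adgre1, Adgre5, Adgrf2 and Adgrf3. Adgrf5 and Adgrg1, which rose, have 2 windows each. Both strands were searched for 6 motifs, none of which lies inside another: an ETS site, an AP-1 site, a GC box, a TATA box, a GATA site and an E-box. Each was searched in a single fixed spelling, given below, so other forms of these sites were not looked for. The first window of each gene held no match. The second Adgrf5 window and both Adgrg1 windows lie inside the annotated spans of the genes, and the first Adgrf5 window lies before its gene. Which start these cells used was not tested. The second windows are shown because they hold the matches, given in capitals: ETS for Adgrf5, with first bases 76 and 36 before the start, and AP-1 for Adgrg1, with first bases 141 and 59 before the start.
Adgrf5, chr17:43389216-43389465, plus strand: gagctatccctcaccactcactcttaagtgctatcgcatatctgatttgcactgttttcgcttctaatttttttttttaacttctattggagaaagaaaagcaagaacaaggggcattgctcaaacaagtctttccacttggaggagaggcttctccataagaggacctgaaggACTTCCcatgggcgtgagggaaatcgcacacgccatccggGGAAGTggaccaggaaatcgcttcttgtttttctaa
Adgrg1, chr8:94984149-94984398, plus strand: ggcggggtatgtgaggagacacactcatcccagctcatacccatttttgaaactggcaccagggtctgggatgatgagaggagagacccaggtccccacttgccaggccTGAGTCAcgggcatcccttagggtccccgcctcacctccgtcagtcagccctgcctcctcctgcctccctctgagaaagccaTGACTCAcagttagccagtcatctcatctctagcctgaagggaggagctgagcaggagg

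Of all 32851 windows in the RefSeq table, 19.7% held the ETS site, spelled GGAAGT, against 4 of the 24 member windows. For the AP-1 site, searched as the letters TGACTCA, the figures were 4.46% of all windows and 3 of the member windows. The GC box, GGGCGG in the search, was found in 32.7% of all windows and in 13 of the member windows. Windows of Adgrl3 overlap in part, and a GC box in the overlap is counted for each window that holds it. A TATA box was taken as TATAAA and found in 12.4% of all windows and in 2 of the member windows. The GATA site was written AGATAA, with a match in 9.99% of all windows and in 2 of the member windows. An E-box, CACGTG, stood in 6.02% of all windows and in 0 of the member windows. Adgrf5 and Adgrg1 thus share none of the 6 spellings searched in these windows, and the matches describe letters only.

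Members that neighbour each other on a chromosome had unlike values. Adgrg5, Adgrg1 and Adgrg3 lie side by side on chromosome 8 between 94923694 and 95045250 (mm10), all on the plus strand. Adgrg5, a receptor of leukocytes, gave 23, 41 and 27 counts in the young libraries against 15, 15 and 21 in the old ones. Its CPM ranges did not overlap, but it did not pass (log2 fold change -0.99, SE 0.41, adjusted p = 0.194). Adgrg3, encoding GPR97 of granulocytes, had 6.31, 9.34 and 6.18 CPM in the young libraries and 5.36, 5.95 and 9.91 CPM in the old ones, which overlap (log2 fold change -0.04, SE 0.28, adjusted p = 0.953). On chromosome 17, Adgrf4, Adgrf2, Adgrf1 and Adgrf5 lie between 42656891 and 43459557. Of these, the highest value outside Adgrf5 was 1.06 CPM, for Adgrf4 in young replicate 1. Differences in fold change between neighbours were not tested.

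Among the latrophilins, receptors that bind FLRT and teneurin proteins at synapses and in other tissues, no member passed. Adgrl2 was the most abundant of them, with 28.7, 35.9 and 44.1 CPM in young and 37, 34.8 and 43.2 CPM in old libraries (log2 fold change 0.08, SE 0.17, adjusted p = 0.841). For Adgrl1 the young libraries had 9.42, 13.8 and 15.9 CPM and the old ones 7.6, 9.92 and 7.3 CPM, and old replicate 2 lay within the young range (log2 fold change -0.66, SE 0.22, adjusted p = 0.124). Of its exon length 15.6% is shared with Gm10644. Adgrl3 was sparse and uneven, at 51, 21 and 19 counts (young) and 4, 29 and 4 counts (old), with adjusted p = 0.369.

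Of the latrophilin ligands, Flrt3 fell from 8.99, 8.46 and 8.83 CPM in young to 2.17, 2.8 and 3.89 CPM in old replicates 1 to 3 (log2 fold change -1.57, adjusted p = 0.00677). That call held on leaving out any library (adjusted p up to 0.0396). Flrt2, the more abundant one, had 24.1 to 31.4 CPM in young and 33.6 to 36.7 CPM in old libraries and did not pass (adjusted p = 0.229).

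Adgrg6 encodes GPR126, which Schwann cells need to make myelin and which binds collagen IV, laminin and the prion protein. Its level was 2.17, 2.23 and 2.5 CPM in young and 1.37, 0.623 and 0.611 CPM in old replicates 1 to 3. The groups did not overlap, but the gene missed the threshold (log2 fold change -1.39, SE 0.37, adjusted p = 0.0573). It passed with DESeq2 (adjusted p = 0.0113), with limma-voom (adjusted p = 0.0365), with a filter of 50 counts in 3 libraries (adjusted p = 0.0474) and without old replicate 1 (adjusted p = 0.0254).

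Prnp, the prion protein gene, rose from 108 to 129.8 CPM in young to 142 to 158 CPM in old libraries (log2 fold change 0.40, adjusted p = 0.0471). That call was lost with the replicate block (adjusted p = 0.0532), without a count filter (adjusted p = 0.0567) and without any one library other than young replicate 3 (adjusted p up to 0.173). Col4a1, a collagen IV gene, had 99.5, 129 and 290.0 CPM in young and 137, 144 and 204 CPM in old libraries and did not pass (adjusted p = 0.92).

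Adgrd1 encodes GPR133, for which PTK7 and PLXDC2 are described partners. The young libraries had 18.8, 15.2 and 25.8 CPM and the old ones 13.3, 13.2 and 15.9 CPM, which overlap (log2 fold change -0.50, SE 0.20, adjusted p = 0.196). Ptk7 was at 176 to 237 CPM in young and 159 to 172 CPM in old libraries, and Plxdc2 at 89.9 to 166 CPM and 139 to 148 CPM. Neither partner gene passed (adjusted p = 0.283 and 0.552). Adgrg2, first known from the epididymis, had 11.3, 9.85 and 13.8 CPM in the young libraries and 10.7, 12.7 and 14.9 CPM in the old ones (log2 fold change 0.13, SE 0.18, adjusted p = 0.739).

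The brain angiogenesis inhibitor group was almost undetected. Adgrb1, a receptor for phosphatidylserine on dying cells, and Adgrb3 had 0 counts in every library, as did Adgrf2. A count of 0 over all libraries allows a level of up to 0.0135 CPM, taking 3 counts of the total and counting error only. Adgrb2 gave 7, 11 and 28 counts (young) and 15, 9 and 21 counts (old) and did not pass (adjusted p = 0.893). C1ql3, a secreted ligand of the group, fell from 3.82, 2.01 and 2.7 CPM in young to 0.319, 0.441 and 0.944 CPM in old replicates 1 to 3 (log2 fold change -2.33, adjusted p = 0.0214). Its call did not hold without young replicate 1, old replicate 1 or old replicate 2 (adjusted p up to 0.0932), and 64.2% of its exon length is shared with Gm37811.

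The remaining members were at or near 0, and several appeared in some libraries only. Adgrf4 gave 37, 0 and 14 counts (young) and 12, 0 and 16 counts (old), with a log2 fold change of -1.03 (SE 1.33, adjusted p = 0.718). Adgra1 gave 11, 0 and 10 counts (young) and 2, 0 and 0 counts (old), and Adgrf1 had 12 counts in old replicate 2 and 0 elsewhere. Adgrv1, the giant receptor of hair cells of the inner ear, gave 2, 0 and 0 counts (young) and 9, 4 and 2 counts (old). Adgrf3 had 2 counts in young replicate 3, Adgrg4 had 2 in young replicate 2 and Adgrg7 had 4 in old replicate 3, with 0 in the other libraries of each. Adgra1, Adgrf1, Adgrf3, Adgrg4, Adgrg7 and Adgrv1, with the 3 at 0 everywhere, are the 9 members that did not enter the test. The related Celsr genes, adhesion GPCRs outside the symbol rule that act in planar cell polarity, were low too, with Celsr3 tested and not called (log2 fold change -0.36, adjusted p = 0.728).

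**Figure D3:**
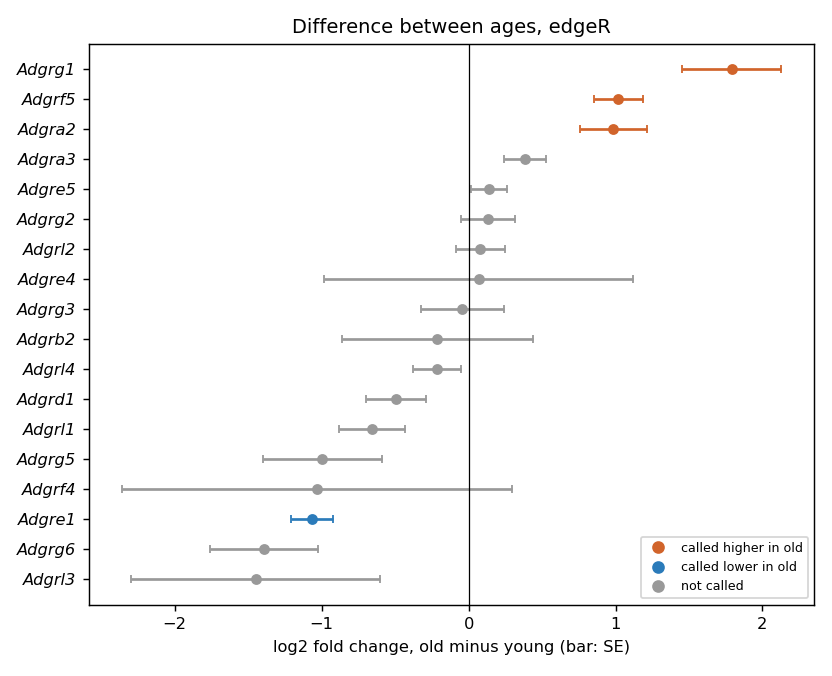
Log2 fold change (old minus young) of the 18 tested members with its SE from edgeR, orange for members called higher in old, blue for lower and grey for not called. Adgrg1 at 1.79, Adgrf5 at 1.02 and Adgra2 at 0.98 are the called rises, Adgre1 at -1.06 the called fall, and Adgrf4, Adgre4 and Adgrl3 have the widest bars.

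Levels of different genes were compared per length, as CPM per kilobase of a gene's combined exons. In young libraries Adgre1 stood at 146 ± 23.9 CPM per kb (SD, n = 3), followed by Adgre5 at 14.2 ± 1.88, Adgra3 at 6.94 ± 1.44, Adgrf5 at 6.75 ± 1.62 and Adgra2 at 3.72 ± 0.956 CPM per kb. Adgra3 and Adgrf5 were within their spread of each other. In old libraries the levels were 69.9 ± 7.82 for Adgre1, 15.7 ± 1.41 for Adgre5, 13.7 ± 0.935 for Adgrf5, 9.06 ± 0.201 for Adgra3 and 7.36 ± 1.53 CPM per kb for Adgra2. On this scale each old library had more Adgrf5 than Adgra3. That order depended on the length: per kb of the longest transcript the old libraries had 14.4 ± 0.987 CPM of Adgrf5 and 16.4 ± 0.364 CPM of Adgra3, with Adgra3 higher in each. Per kb of the longest coding sequence Adgrf5 stood above Adgre5 as well in the old libraries, at 30.5 ± 2.08 against 24 ± 2.16 CPM per kb. Adgrg1 went from rank 12 in young libraries, at 0.522 ± 0.197 CPM per kb, to rank 8 in old ones, at 1.81 ± 0.485 CPM per kb. Per kb of the longest transcript its rank in old libraries was 9, at 2.71 ± 0.727 against 2.72 ± 0.445 CPM for Adgrg2.

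Adgre1 alone made up 80.7, 78.9 and 69.9% of the summed family level per length in young replicates 1 to 3 and 58.5, 55.5 and 49.7% in the old replicates. The summed level without Adgre1 was 39.1, 41.6 and 51.1 CPM per kb in young and 53.6, 58.5 and 61.6 CPM per kb in old libraries, so the share moved with both its parts. Adgrf5 had a share of 3.63% ± 1.25 in young and 10.7% ± 1.1 in old libraries, and Adgra2 one of 1.98% ± 0.613 and 5.79% ± 1.42 (SD, n = 3). These shares depend on the length chosen: with the longest coding sequence Adgre1 made up 65.3% in young and 41.1% in old libraries. They restate the levels above and carry no test.

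**Figure D4:**
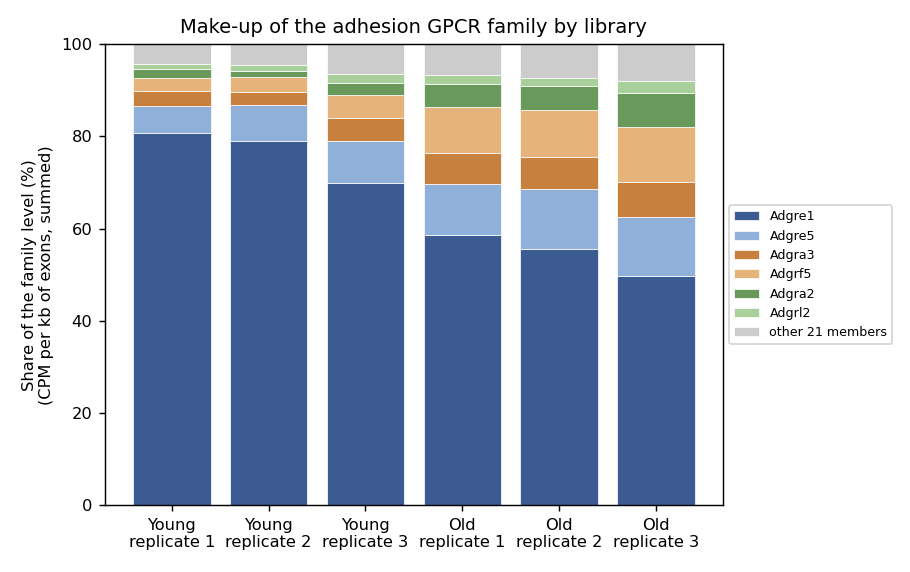
Share of the summed adhesion GPCR level (CPM per kb of exons, %) held by each of the 6 highest members and by the other 21 together, 1 bar per library. Adgre1 holds 69.9% to 80.7% in the young bars and 49.7% to 58.5% in the old bars, with wider bands of Adgrf5, Adgra3, Adgre5 and Adgra2 in the old ones.

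Most of the signalling genes shared by these receptors did not pass. Of 22 G protein and effector genes, all of them tested, 2 rose, 3 fell and 17 did not pass, with a median log2 fold change of -0.02. Gna15, a G alpha subunit gene of blood cells, fell from 23.6 ± 2.61 to 10.1 ± 1.19 CPM (SD, n = 3, log2 fold change -1.22, edgeR adjusted p = 0.00283). Gnao1, the subunit gene best known from neurons, rose from 1.34 ± 0.60 to 6.14 ± 0.117 CPM (SD, n = 3, log2 fold change 2.20, edgeR adjusted p = 0.00744). Both calls held on leaving out any library. Arrb2, encoding a beta-arrestin that takes receptors off the surface, and Elmo1, an engulfment adaptor that acts below BAI1, also fell, with log2 fold changes of -0.50 and -0.63. Gna14 was the other gene that rose. With libraries scaled to the pan-leukocyte markers Arrb2 and Elmo1 no longer passed (adjusted p = 0.443 and 0.213).

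The Elmo1 call also ended without young replicate 1, young replicate 2, old replicate 2 or old replicate 3 (adjusted p up to 0.0906). Gna14 lost its call on leaving out any library (adjusted p up to 0.181), with the replicate block (adjusted p = 0.111), with limma-voom (adjusted p = 0.0516) and without a count filter (adjusted p = 0.0549). Risen genes of this list numbered 4 without young replicate 3 and 1 without any other library. Of the 29 ligand and partner genes 18 were tested, of which 1 rose, 3 fell and 14 did not pass, with a median log2 fold change of -0.09.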

How the data were processed

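RNA sequencing counts of 6 libraries were analysed, grouped by the age and replicate number in the labels. The deposited values are whole-number counts per Ensembl gene. Reads had been trimmed and mapped to mouse (mm10) with software that, per the submitters' processing notes, comprised StringTie 1.3.4d, SAMtools 1.9, HISAT2 2.1.0, STAR 2.6.1a, Trim Galore 0.50, Picard 2.18.15 and cutadapt 1.18, with no role stated for each. Which program counted reads, whether it used strand and how it treated ambiguous reads is not given in the sources used here, so overlapping genes may share reads. Overlap is stated where it exceeds 10% of exon length. Symbols matched 37607 of 39017 identifiers. Positions and lengths came from GENCODE M21.

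Counts were fitted in R 4.3.3 with edgeR 4.0.16 (filterByExpr, TMM scaling, robust quasi-likelihood test). P-values were adjusted by Benjamini-Hochberg across the 15567 genes that passed the filter, with a threshold of 0.05. CPM uses TMM-scaled library sizes. The SE was obtained as the log2 fold change, without its sign, over the root of the F statistic. The members and gene lists were chosen with earlier results of these data known. All members are reported. The rule for other genes was to name, of each list, up to 4 called ones taken by p, or abundant ones if no gene was called. Outside that rule, partners of a member, Vsig4, Lyz2, Col1a1, Gna14, Cdh5, Pecam1, Vwf, Kdr, Rgs5, Mcam and Spi1 were chosen after their values were seen. So were Cd68, Cd163 and Timd4. The lists not described with the members gave these numbers of higher and lower genes among those tested: osteoblast markers 0 and 6 of 10, neutrophil markers 0 and 0 of 10 (3 at an unadjusted p under 0.05, 2 lower with DESeq2, 0 with limma-voom), B cell markers 4 and 0 of 6, adipocyte markers 3 and 0 of 5, osteoclast markers 2 and 0 of 6, stromal markers 2 and 3 of 10, eosinophil markers 2 and 0 of 7, and glial markers 0 and 0 of 3 (1 at an unadjusted p under 0.05, 1 higher with DESeq2, 0 with limma-voom). Leaving out 1 library moved several of these. Lower osteoblast markers numbered 3 without old replicate 1 or 2, and 4 to 7 in the other fits. Higher B cell markers numbered 2 without young replicate 1 or any old replicate, and 3 in the other fits. Lower stromal markers numbered 0 without old replicate 1, 1 without young replicate 1 or old replicate 2, and 2 in the other fits. Higher eosinophil markers numbered 6, 1 and 2 on dropping young replicates 1, 2 and 3 in turn, and 0 on dropping any old replicate. Lower neutrophil and higher glial markers numbered 1 without young replicate 3, and lower osteoclast markers 1 without old replicate 3. Every pair of replicates within an age varied beyond sampling noise (chi-square over its degrees of freedom 23.3 to 119). The procedure was also run on simulated counts with independent libraries, which does not bear on libraries that may share an animal. Alternatives were other scalings, DESeq2 1.42.0, limma-voom (limma 3.58.1), a non-robust dispersion, other count filters, a replicate block, other gene lengths and leaving out each library.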

Additional observations from a re-analysis of the deposited data

How the results depend on the processing

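The calls of Adgre1 and Adgrf5 held in all 15 alternatives, and those of Adgra2 and Adgrg1 in all that kept every library. Members called higher numbered 5 with libraries scaled to pan-leukocyte markers (Adgra3 and Adgre5 being added), which was chosen after seeing the data, and 1 to 4 on leaving out 1 library. Members called lower numbered 2 with DESeq2, 2 with limma-voom, 2 with a filter of 50 counts in 3 libraries and 1 to 2 on leaving out 1 library. Over all genes, 909 were higher and 731 lower. The pan-leukocyte scaling gave 4397 and 371 (92.2% of calls higher against 55.4%), DESeq2 gave 1137 lower, and leaving out 1 library gave 418 to 1459 higher and 294 to 1168 lower, the most without young replicate 3. The cause was not tested.

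Members whose sign turned were not called. Under the pan-leukocyte scaling the log2 fold change was 0.14 for Adgrb2, 0.36 for Adgrg3, 0.16 for Adgrl4 and 0.015 for Spi1, itself 1 of those markers and called lower with TMM scaling. For Adgre4 it was -0.92 with limma-voom and -0.28 with the replicate block. On leaving out 1 library it ran from -0.63 to 0.59 for Adgrb2, -0.45 to 0.64 for Adgre4, -1.78 to 0.20 for Adgrf4, -0.37 to 0.18 for Adgrg3 and -0.065 to 0.25 for Adgrl2.

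The labels tie same-numbered libraries of the ages by nothing but the number, and whether they shared a batch or day is not given. The correlations of their deviations were 0.0883, 0.0340 and 0.0900, against -0.0977 to 0.0183 for libraries of unlike number. Each library correlated best with its own number. The replicate block gave 3 higher and 1 lower member, and 711 higher and 575 lower genes over all. Adgre4, Adgrb2, Adgrf4 and Adgrl3 had few and uneven counts over 3 libraries an age, and missing the threshold does not show that they were alike.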
